A study of Mus musculus with 11 samples.

Results

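The maternal and the paternal allele were compared gene by gene in the hippocampus of 5 old female mice, out of 11 mice in the series. Each mouse was an F1 hybrid of BL6, the common laboratory strain, and CAST, a wild-derived strain whose many sequence differences let a read be assigned to 1 of the parents. Old mice 1, 2 and 5 had a BL6 mother and a CAST father and were 101, 101 and 104 weeks old, and old mice 3 and 4, both 103 weeks old, had a CAST mother and a BL6 father. The other 6 mice, used here only as a comparison, were 8 to 9 weeks old and came from the same crosses, 3 with each mother. All 11 were female, and the labels name no treatment and no engineered allele. A gene was kept if it lay on an autosome and no old mouse had fewer than 20 reads assigned to its alleles, which left 20153 of the 55401 genes of the allelic table. Each old mouse contributed 1 maternal and 1 paternal column, 10 columns in all.

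Genomic imprinting is the expression of a gene from only the maternal or only the paternal copy. It is set by DNA methylation laid down in the egg or the sperm at imprinting control regions and kept through later cell divisions by factors such as the zinc finger protein ZFP57 and the methyltransferase DNMT1. Imprinted genes lie in clusters, many of them active in neurons, where they act in growth, feeding and maternal behaviour. Reciprocal crosses separate the parent of origin from the strain: an imprinted gene keeps its parental side when the strains of the parents are exchanged, while a gene with a stronger BL6 or CAST allele changes sides.

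In each old mouse the deposited gene counts summed to between 129.4 M and 173.5 M reads (M stands for 1000000), of which 46.6 M to 61.7 M were assigned to an allele. Over all autosomal genes the maternal allele held 50.75% to 50.82% of the allelic reads in the 3 old mice with a BL6 mother and 49.09% to 49.31% in the 2 with a CAST mother, so the BL6 allele held slightly more in each. Markers of hippocampal pyramidal and granule neurons were detected in all old mice, with a summed level of 1644.4 to 2632.6 CPM (counts per 1000000 counts of the library) over 11 genes. The 6 choroid plexus markers, led by Ttr, summed to 998.5 CPM in old mouse 2 and 877.7 CPM in old mouse 3 against 21.5 to 115.7 CPM in the other 3, and the 6 striatal markers summed to 727.5 CPM in old mouse 3 against 87.7 to 146.8 CPM in the rest. No marker of either list was at 0 in all old mice. In the young mice the choroid plexus sum ranged from 18.6 to 939.7 CPM and the striatal sum from 80.3 to 2180.3 CPM. In such bulk tissue, fewer cells of a type and less RNA per cell cannot be told apart.

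Of the 20153 genes, 186 differed between the parents (0.923%; edgeR quasi-likelihood test with mouse and strain of the allele as terms, adjusted p under 0.05, here written as called). Reads of the maternal allele were higher for 97 of them (0.481%) and reads of the paternal allele for 89 (0.442%). The median log2 ratio of maternal over paternal reads was 0.000617 over all genes tested. As a count without a model, 259 genes (1.29%) had a maternal share of allelic reads above 50% in all 5 mice and 258 (1.28%) below 50% in all 5. The called genes fell into 64 groups when called genes at most 1 Mb apart were joined, and 19 of these groups held a gene of the core list of imprinted genes. Leaving out old mouse 2 raised the number of called genes to 301, and restricting the test to 12310 genes that share no exon with another gene gave 98.

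**Figure D1:**
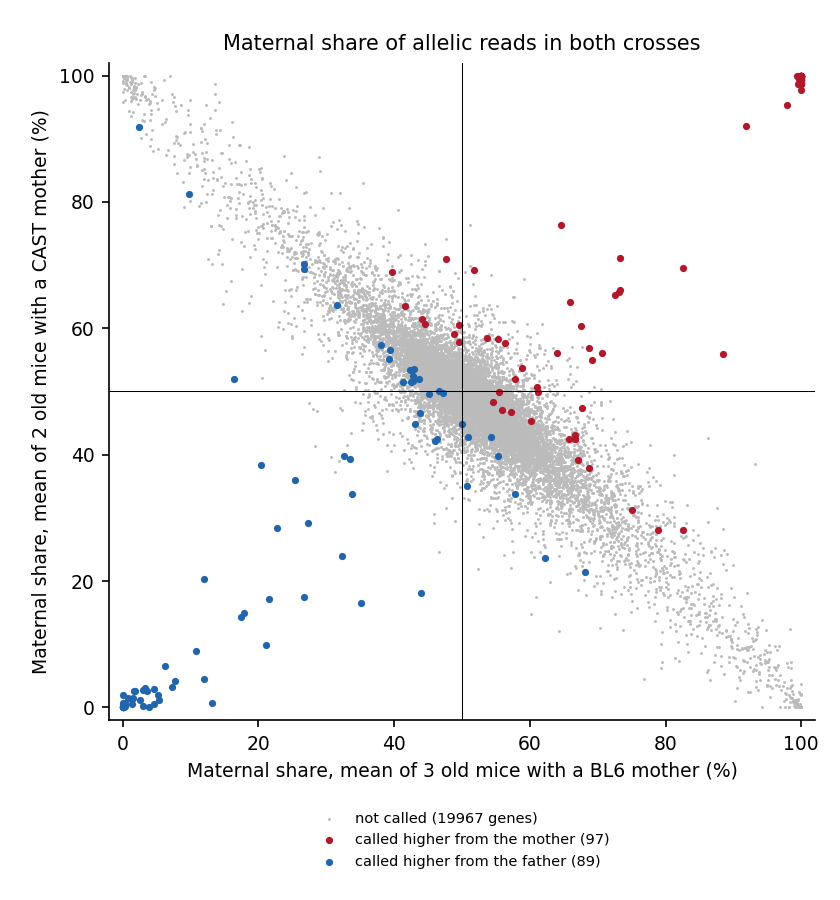
Mean maternal share of allelic reads of each of 20153 genes in the 3 old mice with a BL6 mother (x axis, %) and in the 2 old mice with a CAST mother (y axis, %), 1 point per gene. Genes with a strain difference run from the upper left to the lower right, and the 97 genes called higher from the mother (red) and 89 called higher from the father (blue) include tight groups near 100% and near 0% in both crosses.

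The core list held 54 well known imprinted genes. Of these 52 were found by symbol on an autosome of the table, 42 passed the read filter and 35 of the 42 (83.3%) were called, 12 higher from the mother and 23 higher from the father. The number of core genes called was 26 with limma on log ratios, 28 without the mouse term and 25 without the strain term. Blcap, Gnas, Inpp5f, Igf2, Kcnq1, Dlk1 and Igf2r lost their call in all 3 of these fits, Mest with limma and without the strain term, Ndn with limma, and Zdbf2 and Trappc9 without the strain term. The median log2 ratio over the 42 was -1.5. Of 24 genes listed as paternally expressed, 20 were called on that side, 2 on the maternal side (Rtl1 and Igf2) and 2 were not called. Of 16 listed as maternally expressed, 9 were called on that side, 2 on the paternal side (Commd1 and Kcnq1) and 5 were not called. The maternal share lay on the same side of 50% in all 5 mice for 33 of the 35 called genes. Among the 23 genes called on the paternal side, the mean maternal share was under 1% for 10, from 1% to under 5% for 4, from 5% to under 20% for 6 and 20% or more for 3.

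**Figure D2:**
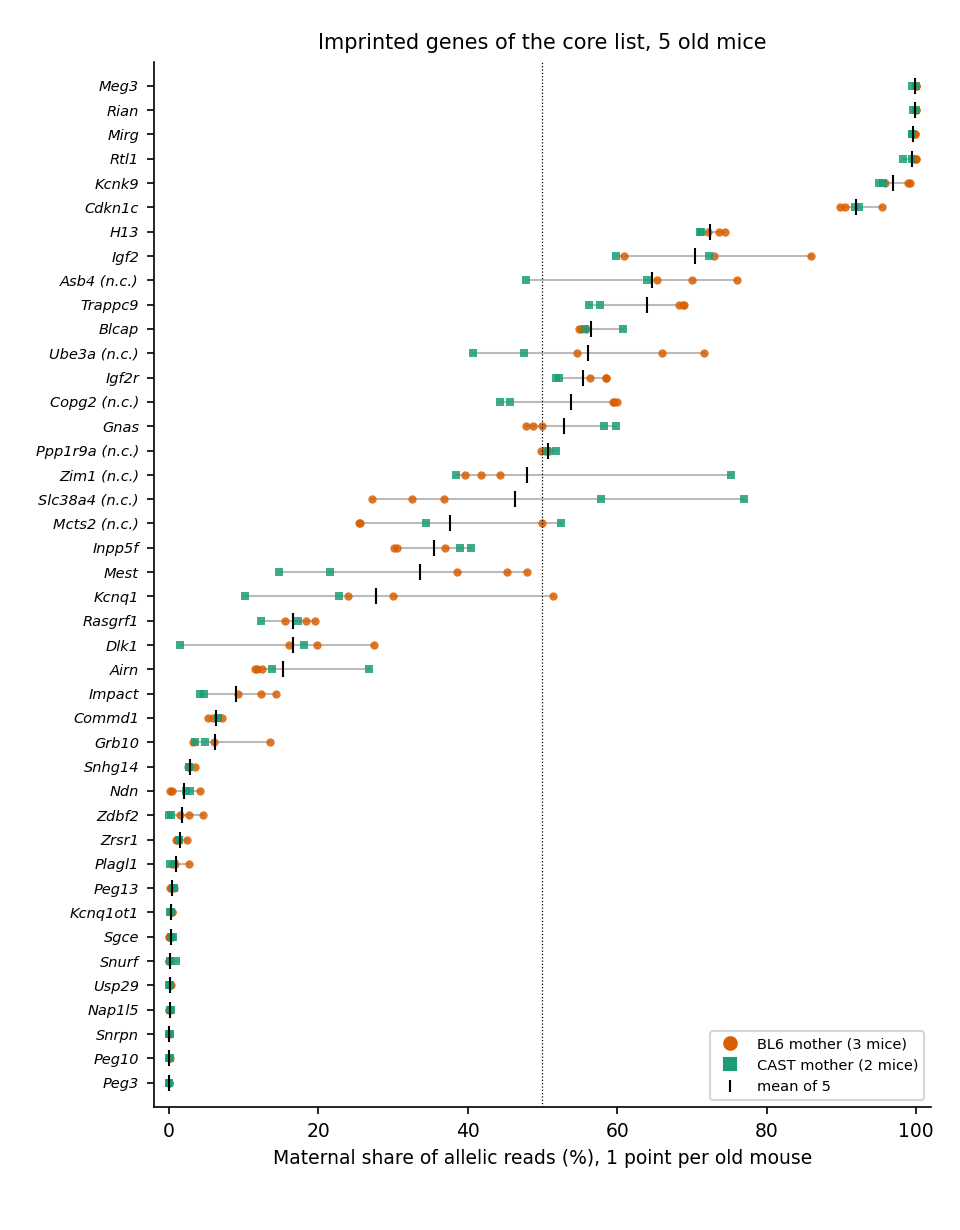
Maternal share of allelic reads (x axis, %) of the 42 core imprinted genes past the read filter (y axis), 1 point per old mouse, circles for a BL6 mother and squares for a CAST mother, with the mean of the 5 mice as a black bar. The 7 genes marked n.c. were not called, and the genes at both ends of the scale have all 5 mice close together.

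Of the 23 core genes called on the paternal side, 10 had a mean maternal share under 1%. Peg3, which encodes a zinc finger transcription factor linked to maternal behaviour, had a maternal share of 0.0400%, 0.0563%, 0.0881%, 0.0351% and 0.0350% in old mice 1 to 5, from at least 17766 allelic reads in each (chromosome 7, 6703892 to 6730431, GRCm38; log2 ratio -10.87 ± 0.05, SE; adjusted p = 4.25e-26). All 5 values were under 0.1%, and those of the 2 crosses overlapped. Usp29 (mean 0.202% ± 0.0775, SD, n = 5) and its antisense transcript Zim3 (0.238% ± 0.197), which lie beside Peg3, were read from the same side. Nap1l5, an intronless gene inside Herc3, had a maternal share of 0.179% ± 0.101, while Herc3 itself, a ubiquitin ligase gene, stood at 58.1%, 58.6%, 54.4%, 53.1% and 59.7% (log2 ratio 0.37 ± 0.021, adjusted p = 9.33e-10). Host gene and nested gene were thus called on opposite sides in the same 5 mice.

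Other genes with a low maternal share were spread over several chromosomes. Peg10, derived from a retrotransposon, and Sgce, which encodes a sarcoglycan mutated in myoclonus dystonia, are neighbours on chromosome 6 and had maternal shares of 0.0713% ± 0.104 and 0.283% ± 0.224. Kcnq1ot1, the long non-coding RNA that silences its neighbours in cis, had 0.324% ± 0.0772, and Peg13, a non-coding RNA inside Trappc9, 0.492% ± 0.220. Plagl1, a zinc finger regulator of cell cycle arrest, reached 2.70% in old mouse 1, above the 0.220% to 0.880% of the other 4. Zdbf2 had maternal shares of 2.74%, 1.51% and 4.60% in the mice with a BL6 mother and 0.0734% and 0.392% in those with a CAST mother. The crosses did not overlap for Zdbf2, whose log2 ratio of BL6 over CAST reads was 1.92 (adjusted p = 1.62e-05).

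The ZFP57 motif TGCCGC was searched on both strands in the 250 bases before each gene start of the RefSeq promoter table (GRCm38.p6). It was present in 8.68% of all 32851 windows. Of the core genes called on the paternal side 18 of 23 were found there, with the motif in 5 of 26 windows (19.23%). Of those called on the maternal side 8 of 12 were found, with the motif in 1 of 15 windows (6.67%). The sets follow the calls, so the 23 include Commd1 and Kcnq1 and the 12 include Rtl1 and Igf2, all listed for the other parent. No other motif was searched. The windows are printed 5′ to 3′ on the strand of the gene, with the motif or its reverse complement in capitals, to show the sequence next to 4 of the paternally read genes. A match is a description of these letters and not a binding site, and RefSeq starts may differ from those of the annotation used for counting. They are chr6:58907127-58907376 (minus strand) for Nap1l5, chr1:63200108-63200357 (plus) for Zdbf2, chr10:13090582-13090831 (plus) for Plagl1 and chr6:30737800-30738049 (plus) for Mest. The Zdbf2 window held 3 motifs and 13 CpG dinucleotides, the Mest window 2 and 14, the Plagl1 window 1 and 19 and the Nap1l5 window 1 and 10, against a median of 6 CpG over all windows, 8 over the paternal core windows and 12 over the maternal ones. These 4 were picked because they hold the motif.
Nap1l5: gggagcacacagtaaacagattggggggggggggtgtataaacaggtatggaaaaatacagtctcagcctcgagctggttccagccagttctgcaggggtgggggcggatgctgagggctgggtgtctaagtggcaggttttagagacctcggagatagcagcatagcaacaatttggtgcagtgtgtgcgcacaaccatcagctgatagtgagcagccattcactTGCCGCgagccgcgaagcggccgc
Zdbf2: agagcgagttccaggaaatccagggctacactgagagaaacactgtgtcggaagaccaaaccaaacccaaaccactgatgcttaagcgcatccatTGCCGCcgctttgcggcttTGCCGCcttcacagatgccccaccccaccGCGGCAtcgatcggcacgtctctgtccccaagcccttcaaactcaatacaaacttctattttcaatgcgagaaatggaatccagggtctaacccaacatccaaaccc
Plagl1: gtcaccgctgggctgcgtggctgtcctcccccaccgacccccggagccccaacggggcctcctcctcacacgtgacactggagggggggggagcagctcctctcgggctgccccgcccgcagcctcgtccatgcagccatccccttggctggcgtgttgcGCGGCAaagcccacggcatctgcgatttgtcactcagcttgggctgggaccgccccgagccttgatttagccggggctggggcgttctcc
Mest: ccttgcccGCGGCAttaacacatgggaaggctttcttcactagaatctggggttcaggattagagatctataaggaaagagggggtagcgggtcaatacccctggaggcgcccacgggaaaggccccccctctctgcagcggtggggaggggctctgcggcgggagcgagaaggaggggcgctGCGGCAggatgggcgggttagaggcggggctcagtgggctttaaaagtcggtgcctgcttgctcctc

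The Snrpn region of chromosome 7, homologous to the human Prader-Willi and Angelman syndrome region, held 37 tested genes, and 33 were called, 32 of them on the paternal side. Of all tested genes 0.923% were called, and of those outside the core list within 1 Mb of a core gene 20%. The genes of the region are not all separate observations, since Gm38393 shares exons with Snhg14, Snrpn, Snurf, Snord64 and Snord107. Snrpn, which encodes a spliceosome protein of neurons, had maternal shares of 0.0621%, 0.0408%, 0.177%, 0.0526% and 0.0396% from at least 16406 reads per mouse (adjusted p = 8.28e-25). Snurf, from the same transcript, had 0.258% ± 0.458, with 1.06% in old mouse 3. Snhg14, the long host transcript of small nucleolar RNAs that runs antisense into Ube3a, had 2.77%, 2.66%, 2.70%, 2.71% and 3.48%, a narrow band above all shares of Snrpn. The 6 called small nucleolar RNA genes of the region, including Snord64 and Snord107, had 1 maternal read among 2141 allelic reads in the 5 mice. For Snord107 0 of 417 reads were maternal, which allows a share of up to 0.719%, and for Snord64 0 of 210, which allows up to 1.43%, both for counting error only. The hairpin genes Mir344g and Mir344-2, farther along the region, had mean maternal shares of 2.09% and 3.24%. The predicted genes with the largest paternal excess outside the lists were Gm38393, Gm44831 and Gm25870, all in this region.

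Ube3a, the ubiquitin ligase gene that neurons read from the maternal copy and that is lost in Angelman syndrome, was not called (log2 ratio 0.26 ± 0.093, adjusted p = 0.374). Its maternal share was 66.0%, 54.7% and 71.6% with a BL6 mother and 40.7% and 47.5% with a CAST mother, so the values lay on both sides of 50%. It was called, on the maternal side, without old mouse 2 (log2 ratio 0.40, adjusted p = 3.68e-04). With all old mice it was also called when the read filter was loosened to 1 read in 1 old mouse (log2 ratio 0.26, adjusted p = 1.45e-08). The log2 ratio of that fit is nearly the same as in the main fit. With DESeq2 and with limma Ube3a stayed not called. In the young mice its mean maternal share was 47.4% (log2 ratio -0.14 ± 0.14), also not called. The exons of Ube3a overlap Snhg14, Gm44560 and 9330162G02Rik on the other strand. The strand setting of the counting is not given in the sources used here. On chromosome 12, Mir409 and Gm24321 cover nearly the same bases on opposite strands. Both had 168, 136, 108, 98 and 142 maternal reads in old mice 1 to 5, and equal paternal reads. Reads there were thus counted for both strands, so the shares of a gene and of an antisense partner may be mixed. Among the partners of Ube3a, the maternal share was 30.1%, 30.8%, 23.5%, 24.4% and 35.9% for 9330162G02Rik and 81.0%, 78.6%, 65.5%, 73.6% and 87.8% for Gm44560. The latter was the one gene of the region called on the maternal side, and Atp10a at 1 end of it and Chrna7 at the other were not called, with mean shares of 52.3% and 49.6%.

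**Figure D3:**
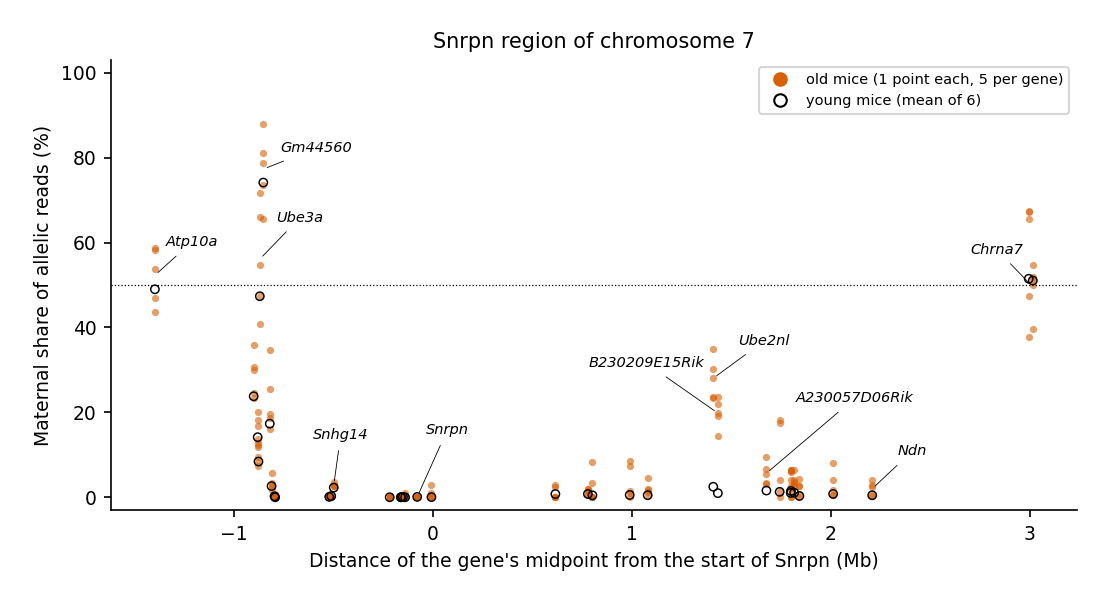
Maternal share of allelic reads (y axis, %) of the 37 tested genes of the Snrpn region by distance of the gene's midpoint from the annotated start of Snrpn (x axis, Mb), with each of the 5 old mice as an orange point and the mean of the 6 young mice as an open circle. At B230209E15Rik and Ube2nl the 5 old mice lie at 14.5% to 23.6% and 23.3% to 34.8%, and the young means at 0.968% and 2.48%.

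Between Snrpn and Ndn lies a run of long non-coding RNA genes in which the share of the maternal copy differed between the ages. B230209E15Rik (chromosome 7, 61529871 to 61615327, minus strand) had a maternal share of 19.2%, 23.6%, 19.8%, 14.5% and 21.9% in the 5 old mice (2201 to 5409 reads each) and of 0.580% to 1.502% in the 6 young mice. The groups did not overlap, and the maternal-by-age term was a log2 difference of 4.59 ± 0.15 (edgeR adjusted p = 9.16e-13). Ube2nl, a processed pseudogene inside the span of B230209E15Rik, had 28.2%, 30.3%, 34.8%, 23.5% and 23.3% in old mice against 1.28% to 4.44% in young mice (log2 difference 3.94 ± 0.37, adjusted p = 3.86e-05). Smaller differences of the same direction were called for A330076H08Rik (3.95% ± 1.40 in old and 1.07% ± 0.310 in young mice, adjusted p = 1.11e-04) and A230057D06Rik (5.66% ± 2.62 and 1.58% ± 0.843, adjusted p = 4.07e-04). These 4 genes were called without each mouse in turn and without old mice 2 and 3, the old libraries with raised choroid plexus or striatal markers. Young libraries with raised sums stayed in that fit, such as young mouse 2 (choroid plexus 939.7 CPM, striatal 2180.3 CPM). The part of tissue content in these age differences was not tested.

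Scaled to the allelic total of each mouse, the maternal allele of B230209E15Rik gave 11.9 ± 4.86 allelic CPM in old and 0.535 ± 0.131 in young mice, and the paternal allele 47.1 ± 14.0 and 56.6 ± 8.97. Its total level, counting both alleles, was 31.7 ± 10.1 CPM at the old age and 28.3 ± 3.52 CPM at the young age. The maternal reads thus differed far more between the ages than the total did. Over the 1.43 Mb from Gm44644 to Ndn, 14 genes were tested, and the mean maternal share was higher in old mice for all 14, with 4 called, against 10766 of 19578 genes in the whole table (55%) with a higher mean in old mice. The ends of this interval were chosen after the values were seen. Its genes are not separate observations either: A230006K03Rik shares exons with Gm38451 and A330076H08Rik with Mir344g, and Gm38451 had as few as 24 reads in a mouse. For the same 4, each old mouse lay above each young mouse, as was the case for 10 of 19578 genes in all (0.0511%). Ndn, which encodes a growth-suppressing neuronal protein, was not called for age, with maternal shares of 0.455%, 4.15%, 2.35%, 2.86% and 0.210% in the old mice and 0.234% to 0.623% in the young (adjusted p = 0.378). Snrpn had 0.0744% ± 0.0580 in old and 0.0870% ± 0.0647 in young mice, a difference smaller than either SD.

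**Figure D4:**
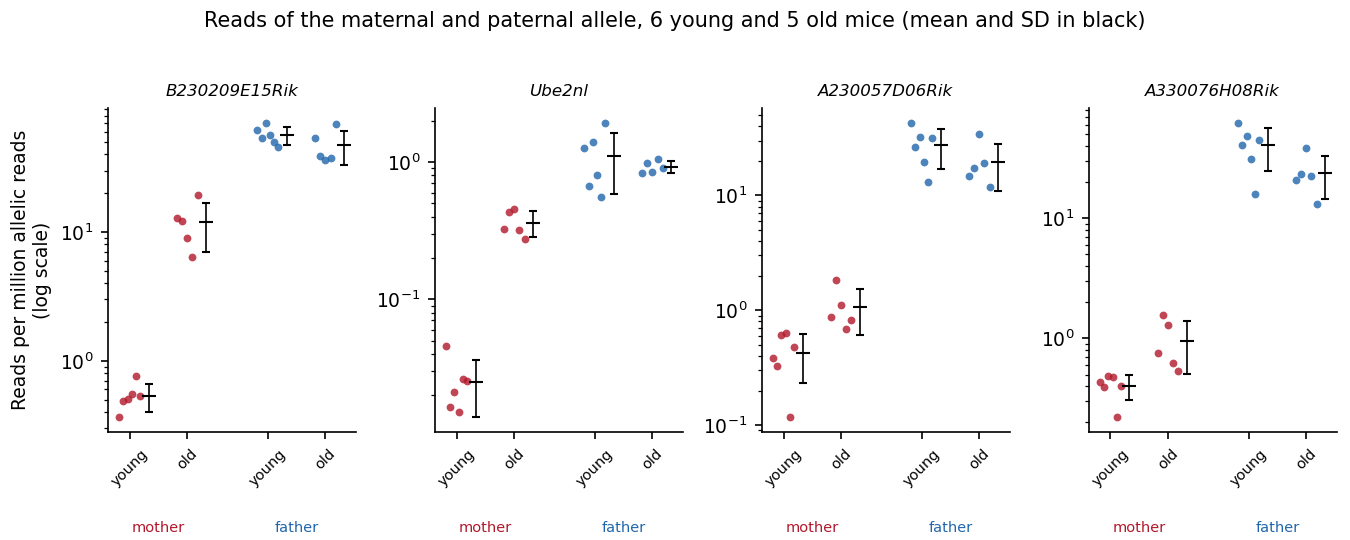
Reads of the maternal (red) and paternal (blue) allele in allelic CPM (y axis, log scale) of 4 genes of the Snrpn region, 1 point per mouse, for 6 young and 5 old mice, with mean and SD in black. The maternal reads of B230209E15Rik lie at 0.535 ± 0.131 in young and 11.9 ± 4.86 in old mice, while the paternal reads of the ages overlap.

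In the whole table the maternal-by-age term was called for 10 of 19578 genes (0.0511%), 8 with a higher and 2 with a lower maternal share in old mice, and 1454 had an unadjusted p under 0.05. No core gene was among the 10, of 41 tested in edgeR, while DESeq2 called 2, Commd1 and Meg3. The fifth gene by p, Cyp20a1, had a maternal share of 55.1%, 59.5%, 45.5%, 43.6% and 55.1% in old mice, and in the young mice 73.4% to 76.0% with a BL6 mother and 44.4% to 48.1% with a CAST mother (log2 difference -0.65 ± 0.083, adjusted p = 0.00137). At both ages its values were higher with a BL6 mother. The same held for the old mice at Ncapd2, a condensin subunit gene, with 65.0% to 66.6% under a BL6 mother and 42.1% to 42.7% under a CAST mother. The count for age was 26 with DESeq2, 46 without old mouse 2, 33 without young mouse 3 and 16 without young mouse 5. Age and any difference in handling of the 2 sets of mice cannot be told apart.

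The Dlk1 and Meg3 region of chromosome 12 was read mostly from the mother. Of 65 tested genes 55 were called, against 0.923% of all tested genes. Of the 55, 51 were on the maternal side, with mean maternal shares between 99.09% and 100% and a median of 99.84%. For 22 of the 51 no paternal read was counted in any old mouse. Meg3, a long non-coding RNA abundant in neurons, had maternal shares of 99.96%, 99.91%, 99.91%, 99.47% and 99.96% from at least 65312 reads per mouse (chromosome 12, 109541001 to 109571726, plus strand; adjusted p = 1.25e-17). Rian, the host of small nucleolar RNAs, had 99.84% ± 0.168 and Mirg, the host of microRNAs, 99.61% ± 0.215. In both Meg3 and Rian old mouse 4 had the lowest share, 99.47% and 99.54%.

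Annotated small RNA genes made up most of the block, with 28 microRNA and 15 small nucleolar RNA genes. They are not all separate observations. Gm24321 had the same counts as Mir409, Mir770 shares exons with Meg3, and Mir377 shares exons with Mirg. The libraries were made from polyadenylated RNA, so reads at a hairpin come from longer transcripts and not from the mature microRNA. Of 24 microRNA genes with a Mir symbol, 11 had no paternal read, and the lowest mean maternal share was 99.09%. Mir770 had 1 paternal read among 1657 and Mir1188 had 4 among 1842. No paternal read was counted for Mir1906-1 (673 reads, which allow up to 0.446%), Mir3070a (496, up to 0.605%), Mir758 (368, up to 0.815%), Mir654 (353, up to 0.850%) or Mir376c (313, up to 0.958%). The snoRNA gene DQ267100 had 3 paternal reads of 968. The predicted genes with the largest maternal excess outside the lists, Gm23474, Gm23508 and B830012L14Rik, lie in the same block. The maternal copy thus gave nearly all reads of the block in every old mouse.

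All 24 microRNA genes matched the RefSeq table, which lists 45 mature sequences for them with 42 different seeds (bases 2 to 8, in capitals), so most products of the cluster share no seed. The 3 seeds that occur more than once are shown with their carriers, followed by mature products of 2 hairpins with many reads (miR-770-5p and miR-1188-5p) and of 2 hairpins farther along the cluster.
miR-3070-5p: aGCCCCUGaccuugaaccuggga
miR-3070-3p: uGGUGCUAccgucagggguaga
miR-3070-2-3p: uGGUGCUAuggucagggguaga
miR-370-5p: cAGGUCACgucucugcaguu
miR-1193-3p: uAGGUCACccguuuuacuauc
miR-770-5p: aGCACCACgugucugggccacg
miR-1188-5p: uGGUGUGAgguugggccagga
miR-376a-3p: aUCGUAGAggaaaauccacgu
miR-410-3p: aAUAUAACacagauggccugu
The neighbouring hairpins Mir3070a and Mir3070b share their seeds, whereas miR-370-5p and miR-1193-3p share AGGUCAC from hairpins with mean maternal shares of 99.09% and 100%.

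Among the protein-coding genes of the region, Dlk1, which encodes a Notch-like membrane protein, was called on the paternal side (log2 ratio -3.61 ± 0.27, adjusted p = 5.10e-08), with maternal shares of 27.5%, 19.8%, 1.53%, 18.2% and 16.1%. Old mouse 3 stood apart with 1376 allelic reads against 51 to 111 in the other 4, and its Dlk1 level was 23.4 CPM against 0.740, 2.05, 1.25 and 1.14 CPM. It is also the mouse with the highest striatal marker sum, whose part in this result was not tested. The young mice had shares of 0.971% to 5.06%, and the maternal-by-age term was not called with all mice (adjusted p = 0.503) but was called without old mouse 3 (log2 difference 3.20, adjusted p = 0.0104). At Rtl1, a retrotransposon-derived gene listed as paternally expressed, the counted reads were maternal at 100%, 99.75%, 98.3%, 99.40% and 100%. The exons of Rtl1 overlap antisense microRNA genes such as Mir127 and Mir136. Reads of both strands may be mixed here, so these shares need not be those of the Rtl1 transcript. Begain, a postsynaptic protein gene, was called on the paternal side with 49.2%, 51.6%, 33%, 37.2% and 51.3% (log2 ratio -0.43 ± 0.038), although 2 of the 3 mice with a BL6 mother were above 50%. Its call was lost with limma (adjusted p = 0.139), without the strain term (0.9997) and without the mouse term (0.541), and that of Dlk1 in the same 3 fits (0.451, 0.9997 and 0.637).

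**Figure D5:**
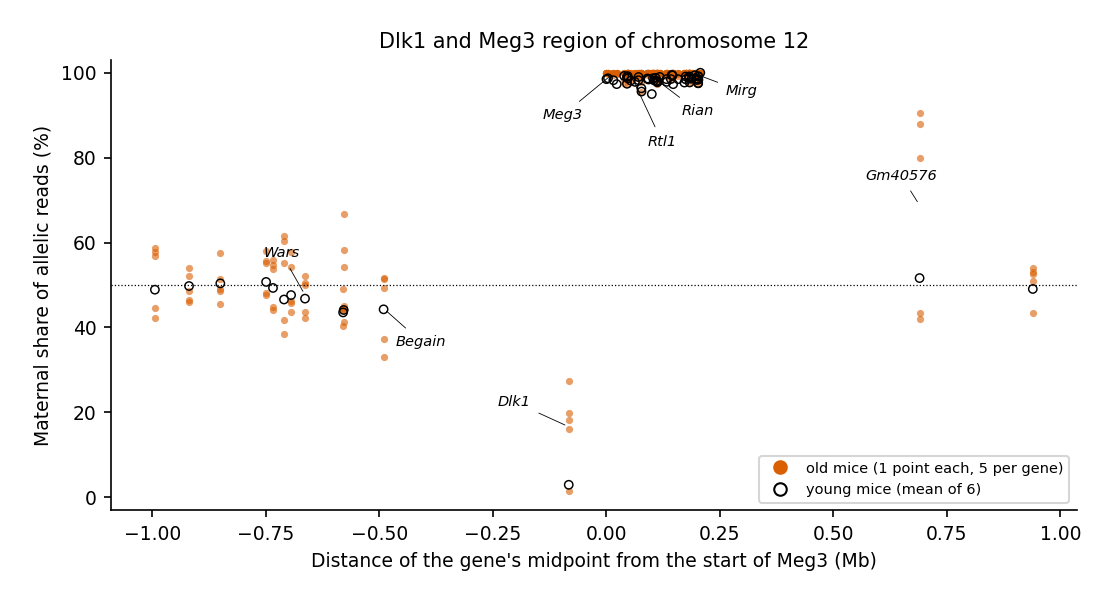
Maternal share of allelic reads (y axis, %) of the 65 tested genes of the Dlk1 and Meg3 region by distance of the gene's midpoint from the start of Meg3 (x axis, Mb), with each of the 5 old mice as an orange point and the mean of the 6 young mice as an open circle. The 51 genes called on the maternal side form a block with means from 99.09% to 100% to the right of Dlk1, whose 5 old mice lie at 1.53% to 27.5%.

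A further set of paternally expressed genes kept a measurable maternal fraction in every old mouse. Rasgrf1, a Ras guanine nucleotide exchange factor gene, had a maternal share of 18.4%, 19.6%, 12.4%, 17.4% and 15.6% from at least 15703 reads (log2 ratio -2.36 ± 0.059, adjusted p = 3.03e-15). Impact, a regulator of translation, had 12.4%, 14.3% and 9.32% with a BL6 mother and 4.19% and 4.67% with a CAST mother, and the crosses did not overlap. Mest, a hydrolase gene, differed likewise between the crosses, with 47.9%, 38.5% and 45.2% against 14.8% and 21.5% and a log2 ratio of BL6 over CAST reads of 0.95. Inpp5f, a phosphoinositide phosphatase gene with a paternally expressed brain variant, had 30.6%, 37.0%, 40.5%, 39.0% and 30.2%. Counts per gene do not separate such a variant from transcripts read from both alleles.

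Grb10, an adaptor of the insulin receptor that neurons read from the father and other tissues from the mother, had a maternal share of 3.22%, 13.6%, 3.49%, 4.82% and 6.06%. The 95% Wilson interval of old mouse 2 ran from 10.9% to 16.9% (514 reads). This mouse also had the highest choroid plexus marker sum of the old mice (998.5 CPM), while old mouse 3 was at 3.49% with a sum of 877.7 CPM. The part of choroid plexus in these shares was not tested. Airn, the non-coding RNA antisense to Igf2r, had 11.6% to 13.8% in 4 mice and 26.8% in old mouse 4 (interval 18.4% to 37.3%), from 82 to 96 reads per mouse. Zrsr1, a splicing factor gene inside Commd1, had 1.502% ± 0.564, and Commd1, a copper metabolism gene listed as maternally expressed, had 5.98%, 7.18%, 6.55%, 6.65% and 5.32%. The exons of both overlap on opposite strands, while Commd1b, which overlaps Commd1 on the same strand, was called on the maternal side at 71.9%, 70.4%, 59.7%, 52.5% and 69.5%. Kcnq1, a potassium channel gene that overlaps Kcnq1ot1, had 35 to 118 reads per mouse and a share of 10.2% to 51.4%. Without old mouse 3 Kcnq1 was not called (log2 ratio -1.35, adjusted p = 0.0746).

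Among maternally expressed protein-coding genes, Kcnk9, which encodes a background potassium channel, had 98.9%, 99.11%, 95%, 95.6% and 95.8% (log2 ratio 4.89 ± 0.13, adjusted p = 1.19e-14). Cdkn1c, a cell cycle inhibitor gene, had 89.8%, 90.4%, 92.4%, 91.8% and 95.5% from 49 to 170 reads. For both genes the maternal copy gave most reads in each of the 5 mice. H13, a signal peptide peptidase gene, had 73.6%, 74.4%, 71.1%, 71.2% and 72.1% at 2623 to 3796 reads. Around Peg13 on chromosome 15, Ago2, the slicer of RNA interference, had 73.1%, 70.4%, 66.4%, 64.1% and 74.3%, and Trappc9, a trafficking protein gene, 68.8%, 68.2%, 57.7%, 56.2% and 69.0%. Both were above 50% in all 5 mice, with each mouse with a BL6 mother above each mouse with a CAST mother. Chrac1, a chromatin accessibility gene whose exons overlap Ago2, had 65.2% ± 2.16.

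Smaller maternal excesses were called for Blcap, a gene known to host Nnat (56.5% ± 2.46, adjusted p = 2.76e-04), and for Igf2r, the receptor that clears IGF2 (58.5%, 58.5%, 52.2%, 51.8% and 56.4%, adjusted p = 3.84e-05). Gnas, which encodes the stimulatory G protein subunit, had 48.7%, 49.95%, 59.8%, 58.2% and 47.9% (log2 ratio 0.23 ± 0.025, adjusted p = 1.11e-05). Its 3 mice with a BL6 mother were below 50% and its 2 with a CAST mother above. The calls of Blcap, Igf2r and Gnas were lost with limma (adjusted p = 0.179, 0.132 and 0.273), without the strain term (0.56, 0.9997 and 0.9997) and without the mouse term (1, 0.692 and 1). Gnas holds several transcripts of opposite imprinting under 1 symbol and was the one called core gene not called in the young mice (adjusted p = 0.0628).

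Igf2, the fetal growth factor gene, listed as paternally expressed and known to be read from both copies in choroid plexus, had a maternal share of 85.9%, 60.9%, 59.8%, 72.2% and 73.0%. Its level was 20.6, 99.08, 65.0, 20.9 and 33.9 CPM in the same order of mice. The 2 mice with the highest Igf2 levels, 2 and 3, had maternal shares near 60% and the highest choroid plexus marker sums, whose part in the result was not tested. The call (log2 ratio 1.07 ± 0.17, adjusted p = 9.26e-04) was lost with DESeq2 with equal size factors within a mouse (adjusted p = 0.107), with limma (0.616), without the strain term (0.9997) and without the mouse term (1). H19, its maternally expressed neighbour, had 4 to 27 allelic reads per mouse and was not tested, with 56 maternal and 4 paternal reads in all.

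The 7 core genes that passed the filter but were not called had different read support. Ppp1r9a, a neuronal scaffold gene, had 49.9% to 51.8% from at least 23796 reads, with a log2 ratio of 0.04 ± 0.017. Copg2, a coatomer gene antisense to Mest, had 60.0%, 59.5% and 59.5% with a BL6 mother and 44.3% and 45.6% with a CAST mother, and its adjusted p was 0.0567. Under the looser read filter of 1 read in 1 old mouse it was called (log2 ratio 0.14, adjusted p = 0.0237). Zim1 had 38.4% to 44.4% in 4 mice and 75.2% in old mouse 3. It was called on the paternal side without that mouse (log2 ratio -0.58, adjusted p = 0.0119) and on the maternal side without old mouse 4 (log2 ratio 0.56, adjusted p = 0.00478). The direction of Zim1 thus depended on which of these mice was left out, and old mice 3 and 4 are those with a CAST mother. Mcts2, a retrogene inside H13, had 25.4%, 50%, 52.5%, 34.4% and 25.6%, and it was called without old mouse 2 (log2 ratio -0.93, adjusted p = 0.0121). It was also called under the looser filter (log2 ratio -0.67, adjusted p = 0.00426). Asb4 with 20 to 50 reads and Slc38a4 with 22 to 46 reads had wide Wilson intervals, for example 48.1% to 85.5% and 13.2% to 48.2% in old mouse 2. The shares of Slc38a4 were 32.6%, 27.3% and 36.8% with a BL6 mother and 57.9% and 76.9% with a CAST mother, so they lay on opposite sides of 50% by cross.

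The 10 core genes under the filter were Nnat, Calcr, Klf14, Zfp264, Magel2, Mkrn3, Peg12, H19, Ins2 and Dio3. Summed over the old mice, Magel2 had 1 maternal read of 162, Zfp264 3 of 137, Mkrn3 3 of 88 and Peg12 4 of 68. Calcr had 38 maternal reads of 42 and Klf14 41 of 46, while Nnat had 31 of 111 and Dio3 11 of 20. Ins2 had no allelic read. Nespas and Hymai were not matched by symbol.

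A wider list of 34 genes for which imprinting is reported in some tissues gave 7 calls among 28 tested genes (25%, against 0.923% of all genes), with a median log2 ratio of 0.0212. All of the 7 but Cdh15 lay within 1 Mb of a core gene. Of all tested genes outside the core list and within 1 Mb of a core gene 20% were called, so the 25% is not a result about the list. Ago2, Chrac1 and Herc3 were on the maternal side. On the paternal side were Begain, Cdh15, Adam23, a neuronal adhesion gene beside Zdbf2 (44.2%, 42.8%, 45.9%, 47.3% and 44.6%, adjusted p = 2.70e-08), and Bcl2l1, a survival gene beside H13 (42.6%, 43.8%, 44.5%, 45.2% and 42.6%, adjusted p = 2.06e-07). Adam23 and Bcl2l1 were under 50% in each mouse. Adam23 was not called with limma (adjusted p = 0.139), and neither it nor Bcl2l1 was called without the strain term (0.186 and 0.061) or without the mouse term (0.741 and 0.279). Tpx2, a spindle assembly gene next to Bcl2l1 and in no list, had 34.1%, 34.8%, 41.0%, 37.6% and 31.6% (log2 ratio -0.81 ± 0.12). Cdh15, a cadherin gene on chromosome 8, had 21.7%, 21.8%, 25.1%, 51.5% and 17.4%, with old mouse 4 alone near 50%, and its call was lost with limma (adjusted p = 0.426), without the strain term and without the mouse term, as were, in the last 2 fits, those of Herc3 and Tpx2. The remaining 21 tested genes of the wider list were not called.

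Outside the core list, 496 tested genes lay within 1 Mb of a core gene, and 99 of these (20%) were called, with a median size of the log2 ratio of 7.48 among the called. Farther away 52 of 19615 (0.265%) were called, 25 maternal and 27 paternal, with a median size of 0.203. Of these 52, 7 had all 5 mice on the same side of 50%, against 92 of the 99 nearby genes. The strain of the allele was also called for 46 of the 52. The share of all tested genes called for strain is not given here, so the 46 is not a result about the distant calls. An example is Nsa2-ps1, a processed pseudogene with maternal shares of 1.53%, 3.98%, 89.4%, 94.5% and 1.83%, where nearly all reads came from CAST in both crosses (adjusted p = 0.00308, and 0.47 with DESeq2). Of these 52 calls, 11 to 47 were still called without each mouse in turn, 22 with DESeq2 with equal size factors within a mouse, 1 with limma on log ratios and 0 without the mouse term. For the 134 calls within 1 Mb of a core gene, core genes included, the same counts were 127 to 133, 130, 105 and 111.

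The young mice gave 145 called genes of 19578 (0.741%), 142 of them with the same direction in the old mice (0.725%). Of the 35 core genes called in old mice, 34 were called the same way in young mice, and so were 94 of 95 called neighbours with a young test. Of the 52 distant calls, 3 were called the same way and 35 had the opposite sign. The 3 were Cdh15, Ahi1 and Nhlrc1, named here after their values were seen. Nhlrc1, a ubiquitin ligase gene mutated in Lafora disease, had 45.4%, 46.4%, 42.1%, 42.7% and 46.9% in old mice (log2 ratio -0.33 ± 0.05). For 33 of the 35 core genes the mean maternal shares at both ages were within 5 percentage points, and the other 2 were Mest and Dlk1. Near either end of the scale a large change in ratio stays within 5 points. In old mice 10 of the 35 had a mean under 1%, 4 from 1% to under 5% and 4 over 99%. Ndn was within 5 points with means of 2.00% in old and 0.471% in young mice (log2 difference 2.16, not called). The count is thus no test of whether core imprinting is stable with age.

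Of 22 listed genes that maintain imprints, such as Dnmt1, Uhrf1, Trim28, Zfp57 and Zfp445, 18 were tested. None was called in edgeR (lowest adjusted p = 0.431, 3 with an unadjusted p under 0.05), in DESeq2 or in limma. With 0.923% of all genes called, a count of 0 in 18 is near the background and is not a result about these genes. Their mean maternal shares ranged from 46% to 54.13%, and the median log2 ratio was -0.00532. Trim28, the corepressor bound by ZFP57, had 50.1% ± 1.69 and Dnmt1 50.1% ± 2.64.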

How the data were processed

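Polyadenylated RNA of 11 hippocampi was sequenced from directional libraries as paired reads of 100 bases, per the labels' protocols. Per the submitters' processing notes, the tools were bcl2fastq 2.20, Trim Galore 0.6.6, HISAT2 2.1.0, SAMtools 1.10 and featureCounts of Subread 2.0.0, with the build GRCm38. The authors deposited raw read counts per gene, for both alleles together and for each allele, and these counts were used as deposited. How reads were assigned to an allele, the annotation release and the strand setting are not given in the sources used here. Column headers name the BL6 allele i4fb, which was matched to BL6 through the cross named in the same header. A TPM table was not used. The labels' protocol gives 102 to 104 weeks for the old mice, while the sample labels give 101 to 104. Reads cover allelic sites unevenly between genes, so allelic counts are compared only within a gene.

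Allelic counts of the old mice were fitted with edgeR 4.0.16 (R 4.3.3) with terms for mouse, parent and strain of the allele. Both columns of a mouse had the mouse's allelic total as library size, p-values were adjusted by Benjamini-Hochberg over all tested genes, and an adjusted p under 0.05 was called. The age term was fitted on all 11 mice with at least 20 allelic reads in each. In the counts of both alleles together, no pair of old mice agreed within sampling noise (lowest chi-square per degree of freedom 50.88). This is not a measure of the spread of the allelic shares. Of 55401 gene identifiers 55141 matched the GENCODE annotation used for positions. On simulated data, the old fit recovered 39, 44, 46 and 48 of 50 genes changed by 1.3, 1.5, 2 and 8 times among 20153 genes with 10 false calls of 187, and the age fit 23, 36, 45 and 50 among 19578 genes with 14 false calls of 168. The simulated counts had a spread set by read level alone, without extra variation of single genes between mice, so false calls may be undercounted. The members and gene lists were chosen with earlier results of these data known. Named were all core genes, called genes of the wider list, up to 8 further called genes per direction by size and the 5 genes with the smallest age p. Alternatives were other scalings, read filters, DESeq2 1.42.0, limma 3.58.1, fits without the strain or mouse term and fits without single mice.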

Additional observations from a re-analysis of the deposited data

Results flagged for a closer look

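Among 68 genes checked, 14 had an old mouse whose maternal share lay far from the other 4, by the ratio of the gap to the range. The nominal rate of this rule is 1 in 20, or 3.4 genes, but it assumes normally spread values. Shares near 0% or 100% can be flagged for a few reads, as at Mir770 (1 paternal read of 391 in old mouse 2) and DQ267100 (3 of 222 in old mouse 1). No excess over chance can be read from the 14. Old mouse 3 was high for Blcap (60.8%), Zim1 (75.2%), Snrpn (0.177%) and Snurf (1.06%). Old mouse 4 was high for Cdh15 (51.5%) and Airn (26.8%) and low for Meg3 (99.47%) and Rian (99.54%). Old mouse 1 was high for Plagl1 (2.7%) and low for DQ267100 (98.6%), old mouse 2 was high for Grb10 (13.6%) and low for Mir770 (99.74%), and old mouse 5 was high for Snhg14 (3.48%) and Chrac1 (69%).

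The maternal over paternal ratio differed between old and young mice, by the age term of edgeR, for 10 genes. The log2 difference, old minus young, was 4.59 for B230209E15Rik, 3.94 for Ube2nl, 1.90 for A330076H08Rik and 1.77 for A230057D06Rik, all on chromosome 7 between Snrpn and Ndn. It was 1.56 for Gm6793, 0.34 for Ncapd2, 0.38 for Scarna10 and 0.38 for Gm28967, and -0.65 for Cyp20a1 and -0.31 for Ostc. Scarna10 and Gm28967 share exons with Ncapd2, so these 3 are not separate observations. The calls of Ostc and Gm6793 were lost without old mouse 3 (edgeR adjusted p = 0.0963 and 0.139).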

How the results depend on the processing

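The number of genes called in old mice, 186, was 428 without the read filter, 112 with limma, 69 without the strain term and 98 among genes sharing no exon. Without the mouse term, that is without the replicate block of the 2 alleles, it was 111. Single mice left out gave 142 to 301 (301 without old mouse 2), and leaving out old mice 2 and 3 together, chosen after seeing the data, gave 311. Of 21 core genes sharing no exon 16 were called. Each old mouse stands in 1 cross only, so no pairing across crosses was made. The age count of 10 was 26 with DESeq2 and 10 to 46 with single mice left out (46 without old mouse 2, 33 without young mouse 3, 16 without young mouse 5). Commd1 was called for age without old mouse 2, old mouse 5, young mouse 3 or young mouse 4, Meg3 and Rian without old mouse 4, Dlk1 without old mouse 3 and Rasgrf1 without young mouse 5. The cause of these changes was not tested. Zim1 (log2 ratio 0.06) reversed to -0.00345 and -0.00184 with DESeq2 under equal and own size factors, -0.00547 with limma, -0.13 without the strain term and -0.55 without old mice 2 and 3, and ranged from -0.58 to 0.56 with single mice left out. Slc38a4 (-0.04) reversed to 0.00552 with limma and 0.40 without old mice 2 and 3, and ranged from -0.28 to 0.35 with single mice left out. Few reads limit Asb4, Slc38a4, Kcnq1, Airn and Ube2nl.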
